A study of Mus musculus with 32 samples.

Results

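Club cells are the main secretory cells of the mouse airway, and 10 genes that they and the neighbouring goblet and serous cells are known to express were followed here through a study of lungs from mice with and without the clock gene Bmal1. The genes were chosen by name: the secretoglobins Scgb1a1, Scgb3a1 and Scgb3a2, the enzymes Cyp2f2, Cbr2 and Aldh1a1, the defence proteins Bpifa1 and Reg3g, and the mucins Muc5b and Muc5ac. Each matched 1 row of the gene-level table of estimated RNA-seq counts, so the set made up 10 of 41687 rows, and all 10 passed the filter on low counts in each of the 3 library preparations. Whole lungs were taken from adult C57b/6 mice, labelled wild type (WT), and from Bmal1 knock-out mice (KO). All were labelled female and were 8 to 18 weeks of age. The KO animals were named only as Bmal1 knock-outs, with no promoter, Cre or exon given. RNA from 6 mice of each genotype was prepared by poly(A) selection (PolyA) and by pull-down of ribosomal RNA (RiboZero), each from 200 ng, and RNA from mice 3 to 6 of each genotype also without any selection (NoSelect), from 15 ng in 6 combined preparations. This gave 32 libraries from 12 mice, and libraries with the same genotype and number in different preparations were treated as the same mouse.

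Club cells line the small airways, where they secrete proteins into the airway lining fluid, carry much of the lung's cytochrome P450 metabolism of inhaled compounds, and act as progenitors that repair the epithelium. Goblet cells, which are rare in the unchallenged mouse airway, make gel-forming mucins. BMAL1, encoded by Arntl, pairs with CLOCK to drive the circadian clock, and it has been studied in club cells for its part in the timing of inflammatory signals. In whole lung these airway cells are a small share of all cells, so fewer cells of a type and less RNA per cell could not be told apart.

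The libraries held 11638590 to 25801192 counts in RiboZero, 29924271 to 41548759 in PolyA and 74979759 to 115059730 in NoSelect, where Lars2 and a transcript of Gm42418 took 69.2% ± 1.35 (SD, n = 8) of the counts. Arntl was at 34.1 to 42.6 CPM (counts scaled to the size of the library) in WT and 19.1 to 23.6 CPM in KO RiboZero libraries, without overlap, and at 31.9 to 37.9 CPM and 26.8 to 32.4 CPM in PolyA, with overlap. The NoSelect library of KO mouse 6 was labelled as liver, but the summed level of 12 liver genes was 0.548 CPM in it, against 0.193 to 1.04 CPM in the other NoSelect libraries, and none of the 12 was highest there. KO mouse 6 also carried Ddx3y, a gene of the Y chromosome, at 112 CPM in RiboZero, while all other mice were at 0. Its Xist, a transcript of female cells, was at 0.102 CPM there, against 1126 to 1417 CPM in WT and 1068 to 1241 CPM in the other KO mice. By both genes this mouse was male although labelled female, so the KO group held mice of both sexes. Each result whose call or direction changed without this mouse, or whose fold moved by over 1.5 times, is therefore also given without it. The alveolar marker Sftpc (4504 to 6782 CPM in RiboZero) and the ciliated cell factor Foxj1 (72.9 to 133 CPM) were present throughout, while Krt5, a marker of basal cells, was at 0 to 0.186 CPM.

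The members span the range from one of the most abundant transcripts of the lung to a nearly silent mucin. Scgb1a1 encodes the club cell secretory protein, a small secreted secretoglobin that defines the cell type, and lies at chr19:9083636-9087958 (GRCm38, minus strand) with 0.476 kb of annotated exon. It alone took 1.21% ± 0.199 (SD, n = 12) of the counts in RiboZero, 4.62% ± 0.832 (SD, n = 12) in PolyA and 0.368% in NoSelect. All 10 members together took 1.71% ± 0.267, 5.98% ± 1.04 and 0.514% ± 0.0767 (SD, n = 12, 12 and 8). Scgb3a2, a secretoglobin of the conducting airway, is at chr18:43764289-43767399 (plus, 0.88 kb), and Scgb3a1, its relative found more in the large airways, at chr11:49663610-49665118 (plus, 0.598 kb). Cyp2f2, the P450 that makes club cells sensitive to naphthalene, is at chr7:27119909-27133660 (plus, 2.025 kb). Cbr2, a mitochondrial carbonyl reductase enriched in mouse lung, is at chr11:120729489-120732114 (minus, 1.327 kb). Aldh1a1, a retinaldehyde dehydrogenase not limited to the airway, is at chr19:20492715-20643465 (plus, 4.937 kb).

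The defence genes and the mucins were the lower members. Bpifa1, a secreted surfactant-like protein of the upper airway, lies at chr2:154142880-154149219 (plus, 1.545 kb), and Reg3g, an antibacterial C-type lectin, at chr6:78466269-78468872 (minus, 2.114 kb). The gel-forming mucins Muc5b, which is made in the resting airway, and Muc5ac, which is made by goblet cells, are neighbours at chr7:141839070-141873084 (plus, 14.964 kb) and chr7:141788972-141819231 (plus, 10.752 kb). Muc5b, Muc5ac and Cyp2f2 share chromosome 7 with Arntl, at distances of 28.52, 28.47 and 86.07 Mb. Some reads of 2 members may be split with similar genes: 14.97% of the 31-base words of Cbr2 transcripts also occur in those of another gene, most often Gm11771, and 5.695% of those of Aldh1a1, most often Aldh1a7. Cyp2f2 overlaps the annotated gene Gm15883, and Aldh1a1 overlaps C730002L08Rik and Gm6684.

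On a per-length scale the order of levels in RiboZero started with Scgb1a1 at 25507 ± 4256 CPM per kb of exon (SD, n = 12). Cbr2 followed at 1451 ± 203, Cyp2f2 at 776 ± 124, Scgb3a2 at 419 ± 116, Scgb3a1 at 217 ± 117 and Aldh1a1 at 141 ± 23.8 CPM per kb. Bpifa1 (37.6 ± 33.5), Reg3g (24.4 ± 27.4), Muc5b (13.9 ± 5.60) and Muc5ac (0.478 ± 0.371 CPM per kb) closed the order. In RiboZero the ranges over libraries of Scgb1a1, Cbr2 and Muc5b did not overlap that of the next gene, while those of the other neighbours did. Within single libraries Cyp2f2 lay above Scgb3a2, and Aldh1a1 above Bpifa1, in 12 of 12, but Scgb3a1 lay above Aldh1a1 in 9, Bpifa1 above Reg3g in 9 and Reg3g above Muc5b in 6 of 12. The order was the same in PolyA, and in NoSelect Muc5b (7.94 CPM per kb) moved ahead of Bpifa1 (7.10) and Reg3g (4.47).

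Promoters were taken from RefSeq (GRCm38.p6), which matched 6 of the 10 members with 7 start sites; Scgb1a1, Scgb3a2, Muc5b and Muc5ac had no entry. The 250 bases before the start are shown for Scgb3a1 (chr11:49663345-49663594, plus), Reg3g (chr6:78468875-78469124, minus) and Bpifa1 (chr2:154142630-154142879, plus), because of the members in the table these differed most between mice, Scgb3a1 and Reg3g together and Bpifa1 in other mice. Capitals mark a match, on either strand, to TATAAA or to TTCNNNGAA, the pattern bound by STAT factors.
Scgb3a1: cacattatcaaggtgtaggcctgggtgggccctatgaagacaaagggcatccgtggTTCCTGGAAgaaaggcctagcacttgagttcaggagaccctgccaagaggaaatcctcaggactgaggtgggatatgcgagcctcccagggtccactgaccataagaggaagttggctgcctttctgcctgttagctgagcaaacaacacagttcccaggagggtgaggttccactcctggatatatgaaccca
Reg3g: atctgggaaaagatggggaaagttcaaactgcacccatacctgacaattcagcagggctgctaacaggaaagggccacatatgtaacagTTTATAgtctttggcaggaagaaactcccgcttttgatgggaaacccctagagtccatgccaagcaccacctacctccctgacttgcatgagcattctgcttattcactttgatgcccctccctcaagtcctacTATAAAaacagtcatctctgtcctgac
Bpifa1: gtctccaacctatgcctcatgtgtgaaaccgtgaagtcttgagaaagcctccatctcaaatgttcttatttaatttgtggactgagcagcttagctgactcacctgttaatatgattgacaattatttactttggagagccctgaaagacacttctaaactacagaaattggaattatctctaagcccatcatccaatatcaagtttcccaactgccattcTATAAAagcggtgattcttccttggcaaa
TATAAA was found in the windows of Bpifa1, 29 bases before the start, and Reg3g, 27 and 161 bases before it, and occurs in 12.4% of 32817 such windows in the table. TTCNNNGAA was found 194 bases before the start of Scgb3a1 and occurs in 7.01% of windows. The E-box CACGTG, which BMAL1 and CLOCK can bind, was not among the letters of any of the 7 windows and occurs in 6.02% of all. These matches describe the letters in a short window and were not tested for binding.

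The question put by the genotypes is whether airway secretory transcripts differ in lungs that lack Bmal1. Scgb1a1 and Scgb3a2 had higher median levels in KO than in WT lungs in every preparation, Reg3g and Bpifa1 were spread widely between mice of either genotype, and the fitted changes of Cbr2 and Aldh1a1 were at most 0.12 on the log2 scale. No member passed the test in any preparation: 0 of 10 were called in each of the 3 at an adjusted p under 0.05 by the quasi-likelihood test of edgeR, Benjamini-Hochberg adjusted over all rows, against a background of 3.46%, 4.03% and 2.17% of rows called. At an unadjusted p under 0.05 there were 2 members in each preparation, where 16.4%, 18% and 15.7% of all rows passed. DESeq2 called 0, 0 and 1 members, where over all rows it called 985 of 16710, 1355 of 17211 and 874 of 17124. The log2 fold change was above 0 for 9 of 10 members in each preparation, with medians of 0.47, 0.44 and 0.36, while the median absolute change of all rows was 0.09, 0.10 and 0.09. Without KO mouse 6 the change of Aldh1a1 was below 0 in each preparation (-0.076, -0.013 and -0.15), so fewer members were above 0. The preparations share the same mice and are not independent repeats, and many members vary together over those mice, so their signs are not independent either.

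Scgb1a1 in RiboZero ranged from 8341 CPM (mouse 6) through a median of 11152 to 13895 CPM (mouse 2) in WT, and from 11691 CPM (mouse 3) through 13260 to 15085 CPM (mouse 2) in KO. All 6 KO mice lay above the WT median and 3 above the highest WT mouse, so the groups overlapped in part. In NoSelect the WT libraries were at 3569, 3452, 3440 and 2615 CPM for mice 3 to 6 and the KO libraries at 3695, 4491, 3805 and 4412 CPM. Here every KO library lay above every WT library. In this preparation of 4 against 4 the genotypes did not overlap for 2 of 10 members, Scgb1a1 and Scgb3a2, and for 9.51% of all rows, while in RiboZero and PolyA they overlapped for all 10 members and were apart for 2.89% and 3.21% of rows. The log2 fold change was 0.28 (SE 0.11, adjusted p 0.208, edgeR) in RiboZero, 0.26 (SE 0.13, adjusted p 0.332) in PolyA and 0.33 (SE 0.11, adjusted p 0.206) in NoSelect. In PolyA the WT libraries ran from 32951 (mouse 6) through 40201 to 59143 CPM (mouse 2) and the KO libraries from 37760 (mouse 1) through 51964 to 55979 CPM (mouse 4). WT mouse 2 was the highest of all 12 there and lay above every KO mouse. Without that library the PolyA test called 2 members, Scgb1a1 and Scgb3a2, with a lowest adjusted p of 0.0213. Over all rows it then called 1066 of 17312, against 694 of 17211 with that library. With mice 3 to 6 only, the PolyA test called Scgb1a1 (adjusted p 0.0334) and 465 of 17246 rows. DESeq2 called Scgb1a1 in NoSelect (adjusted p 0.0469), where it called 874 of 17124 rows against 372 by edgeR.

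Scgb3a2 gave a similar picture. In RiboZero it ranged from 238 CPM (mouse 6) through 306 to 429 CPM (mouse 2) in WT and from 306 CPM (mouse 3) through 440.4 to 533 CPM (mouse 6) in KO. All 6 KO mice lay above the WT median and 3 above every WT mouse. In NoSelect the WT libraries of mice 3 to 6 held 74.1, 73.6, 73.3 and 56.8 CPM and the KO libraries 75.2, 119, 77.1 and 119 CPM, again without overlap. KO mice 4 and 6 stood well above the rest, and KO mice 3 and 5 were just above WT. The log2 fold change was 0.47 (SE 0.17, adjusted p 0.166) in RiboZero, 0.42 (SE 0.17, adjusted p 0.204) in PolyA and 0.49 (SE 0.18, adjusted p 0.223) in NoSelect, all by edgeR.

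The third secretoglobin, Scgb3a1, had a wider spread in KO lungs. In RiboZero the WT mice lay between 72.1 (mouse 5) and 126 CPM (mouse 6) with a median of 99.5, and the KO mice between 36.5 (mouse 3) and 307 CPM (mouse 1) with a median of 156. Thus 4 of 6 KO mice were above every WT mouse and 1 was below every WT mouse, in RiboZero and again in PolyA. The log2 fold change of 0.72 had a 95% interval of -0.05 to 1.48 in RiboZero, with 0.65 in PolyA and 0.50 in NoSelect.

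**Figure D1:**
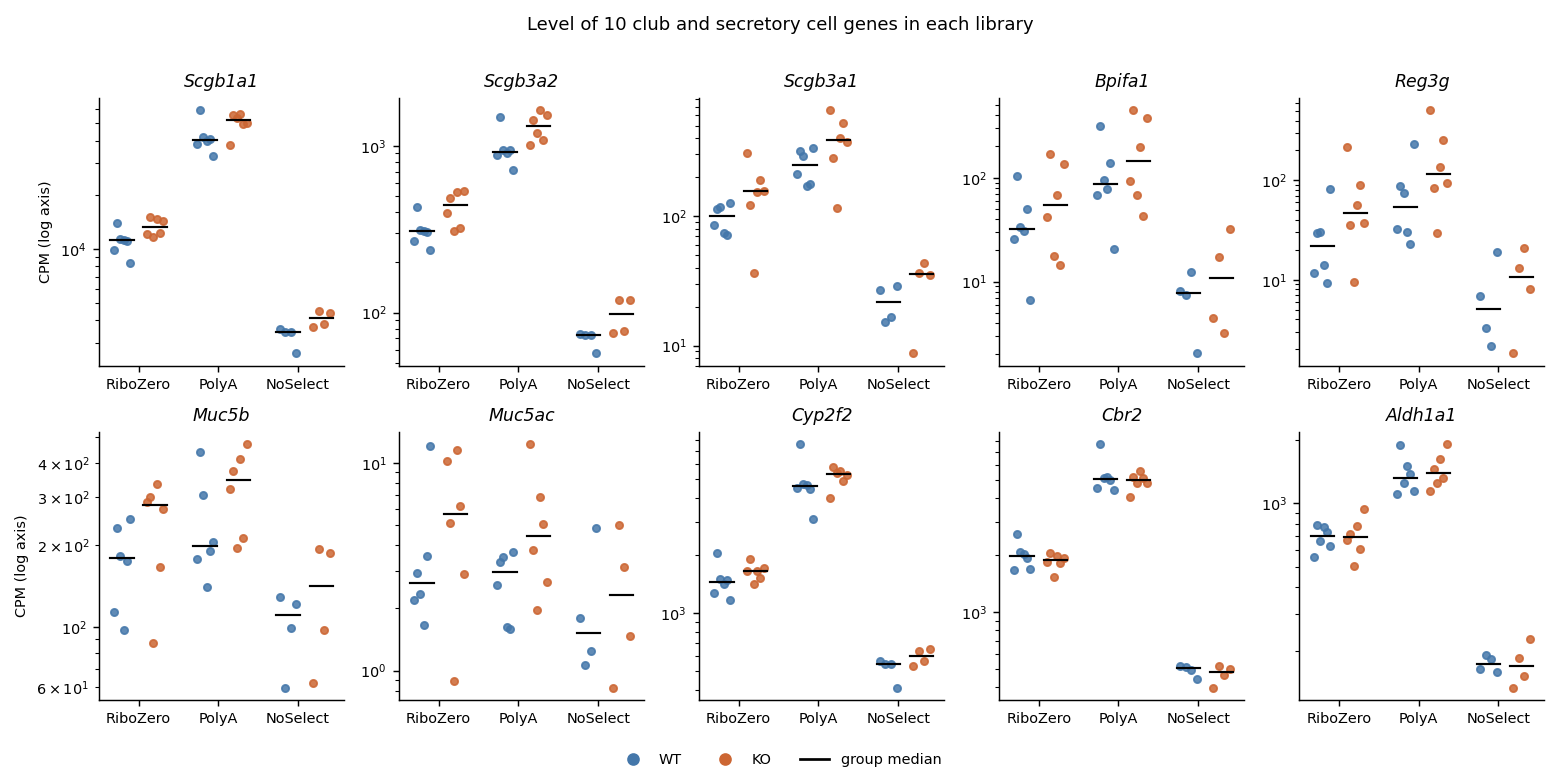
Level of each of the 10 members in every library, in CPM on a log axis, by preparation and genotype, with points for mice and a line for the group median. Levels are scaled within a preparation, so heights compare WT with KO and not the preparations; for Scgb1a1 the NoSelect points of KO (3695 to 4491 CPM) all lie above those of WT (2615 to 3569 CPM), while the RiboZero points of Reg3g and Bpifa1 spread 8.85- to 22.9-fold within a genotype.

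The defence genes differed more between mice of a genotype than between genotypes. Reg3g in RiboZero ranged from 9.32 CPM (mouse 5) through 21.8 to 82.4 CPM (mouse 6) in WT and from 9.39 CPM (mouse 3) through 46.8 to 215 CPM (mouse 1) in KO. The lowest mice of the groups were alike, 5 of 6 KO mice were above the WT median and 2 above every WT mouse. Its log2 fold change was 1.34 with a 95% interval of -0.12 to 2.80 in RiboZero, 1.21 (-0.30 to 2.71) in PolyA and 0.48 (-1.31 to 2.28) in NoSelect. Bpifa1 in RiboZero ranged from 6.68 CPM (mouse 6) through 32.1 to 104 CPM (mouse 2) in WT and from 14.4 CPM (mouse 5) through 55.1 to 170.0 CPM (mouse 2) in KO. WT mouse 6 had the lowest Bpifa1 and the highest Reg3g of its genotype. The log2 fold change of Bpifa1 was 0.84 with an interval of -0.57 to 2.25 in RiboZero, 0.78 in PolyA and 0.95 in NoSelect, and the NoSelect value was 0.16 (adjusted p 0.935, edgeR) without KO mouse 6. The values of Reg3g moved with single mice too: in RiboZero it was 0.64 without KO mouse 1 and 1.96 without WT mouse 6. With intervals this wide, a severalfold difference between the genotypes was not detectable with these numbers of mice.

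Among the mucins, Muc5b in RiboZero ranged from 97.6 CPM (mouse 4) through 179 to 250.1 CPM (mouse 6) in WT and from 87.5 CPM (mouse 3) through 280.0 to 337 CPM (mouse 4) in KO. In RiboZero, 4 of 6 KO mice exceeded every WT mouse, yet KO mouse 3 was the lowest of all 12. In NoSelect the WT libraries of mice 3 to 6 held 129, 59.8, 99.3 and 122 CPM and the KO libraries 62.1, 194, 97.1 and 187 CPM, so the pattern of high KO mice 4 and 6 and low KO mouse 3 recurred in the same animals. Its log2 fold change was 0.47 (95% interval -0.20 to 1.14) in RiboZero, 0.45 in PolyA and 0.40 in NoSelect. Muc5ac was near the floor of the assay, with 10 to 275 counts per RiboZero library. It ranged from 1.67 CPM (mouse 4) through 2.65 to 12.1 CPM (mouse 6) in WT and from 0.894 CPM (mouse 3) through 5.65 to 11.5 CPM (mouse 4) in KO. In PolyA, where 4 of 6 KO mice were above every WT mouse, the log2 fold change was 1.00 (95% interval 0.11 to 1.88, adjusted p 0.219, edgeR). It was 0.61 in RiboZero and 0.22 in NoSelect. Without WT mouse 6 these values became 1.29 (adjusted p 0.231, edgeR) and 0.93, and without KO mouse 4 the NoSelect value became -0.30.

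The enzymes and Scgb1a1 were the 4 members that differed least between mice of a genotype in RiboZero. Cyp2f2 in RiboZero ranged from 1178 CPM (mouse 6) through 1456 to 2052 CPM (mouse 2) in WT and from 1423 CPM (mouse 3) through 1665 to 1921 CPM (mouse 2) in KO. No KO mouse lay outside the WT range, and the log2 fold change was 0.15 (95% interval -0.10 to 0.41), with 0.09 in PolyA and 0.21 in NoSelect. Cbr2 was the only member with a lower fitted level in KO in each preparation, at -0.10 (-0.33 to 0.12), -0.12 (-0.39 to 0.16) and -0.07 (-0.27 to 0.13) on the log2 scale. Its RiboZero levels were 1662 CPM (mouse 1) through 1978 to 2588 CPM (mouse 2) in WT and 1527 CPM (mouse 3) through 1889 to 2057 CPM (mouse 2) in KO, with overlap. Aldh1a1 was at 556 (mouse 1) through 699.8 to 787 CPM (mouse 2) in WT and 505 (mouse 3) through 693 to 939.6 CPM (mouse 6) in KO. Its log2 fold change was 0.02 (-0.26 to 0.31) in RiboZero, 0.07 (-0.25 to 0.39) in PolyA and 0.003 in NoSelect. These signs are not firm, because without KO mouse 6, the highest, the values became -0.076, -0.013 and -0.15, and the PolyA value of Cbr2 became 0.024 without WT mouse 2. For these enzymes the intervals leave room for changes of up to 0.46 on the log2 scale.

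**Figure D2:**
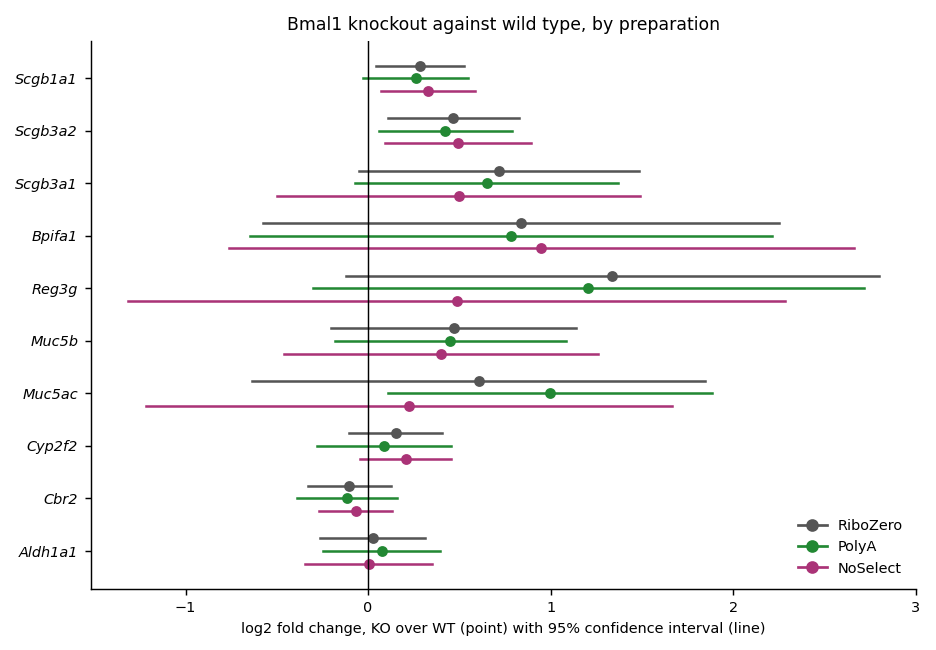
Log2 fold change of KO against WT for each member in the 3 preparations, as points with 95% confidence intervals from edgeR's quasi-likelihood fit. The intervals of Scgb3a2 lie above 0 in all 3 preparations, 0.11 to 0.83 in RiboZero being the lowest p of the set there, but no member passed after adjustment over all rows.

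The effect of genotype was also compared between preparations. The interaction of genotype and preparation was called for 0 of 10 members in each of the 3 pairs of preparations, by edgeR and by DESeq2, and 0 members had an unadjusted p under 0.05. Over all rows the interaction was called for 0% in each pair, and 1.82%, 2.24% and 1.39% of rows had an unadjusted p under 0.05. The estimates for the members ran from -0.19 to 0.85 on the log2 scale, with a lowest unadjusted p of 0.34 (edgeR), so no difference between preparations in the genotype effect was detectable with 4 to 6 mice a group.

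Most members took a larger share of PolyA than of the other preparations, a shift that some other gene lists shared. The median log2 fold change of the 10 members was 1.05 for PolyA against RiboZero and 1.37 for PolyA against NoSelect, where that of all rows was 0.07 and 0.10. It was 0.92 and 1.04 for other secretory products, 0.76 and 1.15 for ciliated, 0.80 and 0.99 for smooth muscle and 1.42 and 1.04 for neuroendocrine genes. Alveolar type 2 (-0.04 and 0.10), endothelial (0.002 and 0.12) and macrophage genes (-0.40 and -0.17) did not share it. Each pair of preparations was fitted on a common scale, with genotype as a term, and a call needed an adjusted p under 0.05 and a log2 fold change of at least 1. PolyA gave higher shares of Scgb1a1, Scgb3a2, Cyp2f2, Bpifa1 and Cbr2 than RiboZero, 5 of 10 members, against a background of 23.6% of rows called in either direction, 7% higher and 16.6% lower. Scgb1a1 stood at 41205 ± 7943 CPM in PolyA and 13639 ± 2246 CPM in RiboZero on that scale (SD, n = 12), a log2 fold change of 1.59 (SE 0.09, adjusted p 3.05e-14, edgeR). It was higher in PolyA in 12 of 12 mice, by 2.40-fold (KO mouse 1) to 3.69-fold (KO mouse 3), and the preparations did not overlap. Cyp2f2 (1.33), Scgb3a2 (1.30) and Cbr2 (1.08) likewise did not overlap, and Bpifa1 (1.15, adjusted p 0.0328) did. Reg3g, at 1.02 (adjusted p 0.061), was not called, but it was higher in PolyA in 12 of 12 mice, and with the mouse as a block it was called at 1.03 (adjusted p 8.52e-14, edgeR). Scgb3a1 (0.97) and Aldh1a1 (0.69) were also higher in PolyA in 12 of 12 mice but below the fold required.

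The mucins departed from the other members. Muc5b differed by 0.13 (95% interval -0.32 to 0.58) between PolyA and RiboZero and was higher in PolyA in 8 of 12 mice, while Muc5ac differed by -0.73 (-1.48 to 0.02) and was higher in PolyA in 2 of 12. These intervals are from fits without a mouse term. With the mouse as a block the adjusted p was 0.197 for Muc5b and 0.00642 for Muc5ac (edgeR), and neither reached the fold required. For all 10 members the ratio of PolyA to RiboZero was highest in KO mouse 3, and for 7 it was lowest in KO mouse 1. For Muc5ac and Muc5b it was lowest in WT mouse 6, where Muc5ac had a ratio of 0.240. In KO mouse 3, the log2 CPM of Scgb1a1 less the genotype mean was -0.18 in RiboZero, -0.14 in NoSelect and 0.10 in PolyA. For Cyp2f2 these values were -0.21, -0.16 and 0.08. The RiboZero library of this mouse also had the lowest depth of the 12. The part of single libraries and of their depth in these ratios was not tested.

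Against NoSelect, PolyA was called for 8 of 10 members, 7 higher and 1 lower, where the background was 25.1% in either direction, 10% higher and 15.1% lower. Bpifa1 (1.75), Scgb3a2 (1.64), Reg3g (1.57), Scgb1a1 (1.52), Scgb3a1 (1.45), Cbr2 (1.28) and Cyp2f2 (1.04) were higher in PolyA, and each was so in 8 of 8 mice. The call of Cyp2f2 rested on the fold required, since its log2 fold change was 0.93 with the mouse as a block. Muc5ac was lower in PolyA, by a log2 fold change of -1.47 (SE 0.38, adjusted p 0.00146, edgeR), in 8 of 8 mice. Muc5b (-0.87) and Aldh1a1 (0.88) were not called.

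RiboZero and NoSelect, which use the same kit apart from the depletion step, gave fewer calls. They also differed in input, 200 ng against 15 ng in 6 combined preparations, and in depth, so a difference between them cannot be assigned to depletion alone. Of the members only Muc5b was called, lower in RiboZero at 125 ± 50.3 CPM (SD, n = 12) against 255 ± 109 CPM (SD, n = 8) in NoSelect, against a background of 4.3% of rows, 1.74% higher and 2.56% lower. It was lower in RiboZero in 8 of 8 mice, with a log2 fold change of -1.03 (SE 0.25, adjusted p 0.00213, edgeR). The value sat at the required fold of 1: with the mouse as a block it was -1.12, and without KO mouse 6, or without the NoSelect library of WT mouse 3, WT mouse 6 or KO mouse 4, it was -0.93 to -0.99 and the call was lost.

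Over protein-coding rows the preparation effect went with annotated exonic length, but most members lay higher than the rows of their own length class. Among protein-coding rows the median log2 fold change of PolyA against RiboZero was 0.79 for genes of up to 1 kb of exon, 0.67 for 1 to 2 kb, 0.35 for 2 to 4 kb, -0.07 for 4 to 8 kb and -0.79 above 8 kb. The share called higher fell with it, from 25.1% to 0.772%, and the share called lower above 8 kb was 39.9%. Scgb1a1 (1.59), Scgb3a2 (1.30), Cbr2 (1.08), Bpifa1 (1.15), Cyp2f2 (1.33), Reg3g (1.02) and Aldh1a1 (0.69) lay above the upper quartile of their own length class, which is 1.01, 0.91, 0.64 and 0.31 from the shortest to the fourth class. Scgb3a1 (0.97) lay inside the quartiles of the shortest class, and Muc5ac (-0.73) inside those of the longest. Muc5b, at 0.13, lay above the upper quartile (-0.29) of the longest class against RiboZero. Against NoSelect its PolyA value of -0.87 lay inside the quartiles of that class (-1.33 to -0.30). Its RiboZero level was itself lower than in NoSelect (-1.03), so it was not high for its length in PolyA against both preparations. Other properties that vary with length, such as the tail of the transcript or RNA integrity, were not measured in these files.

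**Figure D3:**
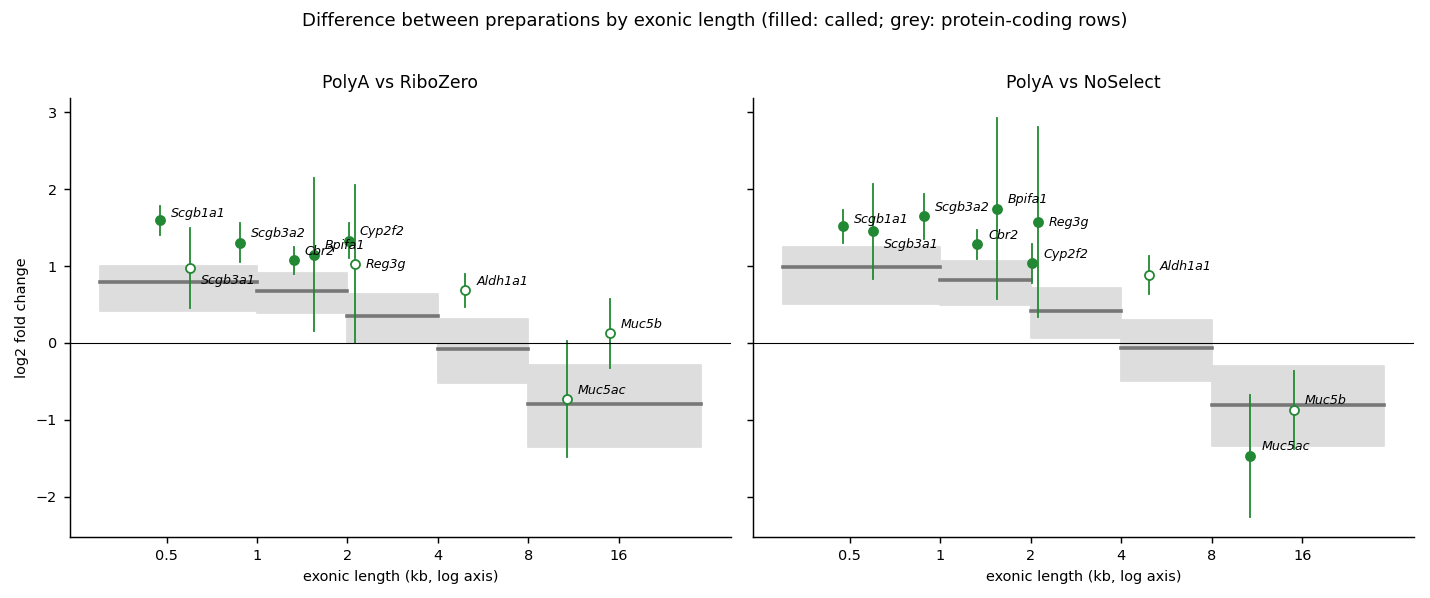
Log2 fold change of PolyA against RiboZero and of PolyA against NoSelect for each member, by annotated exonic length in kb, with filled points for called members, and with the median (line) and quartiles (band) of all protein-coding rows in each length class in grey. The band falls from a median of 0.79 in the shortest class to -0.79 in the longest for PolyA against RiboZero, where 8 of 10 members lie above the band of their class and Scgb3a1 and Muc5ac within it. Against NoSelect 8 lie above, Muc5b within and Muc5ac (-1.47) below the band.

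How much a member varied from mouse to mouse differed widely within the set. The standard deviation of log2 CPM within genotype in RiboZero was 1.39 for Bpifa1, 1.35 for Reg3g, 1.18 for Muc5ac, 0.77 for Scgb3a1 and 0.65 for Muc5b. It was 0.32 for Scgb3a2, 0.26 for Aldh1a1, 0.22 for Cyp2f2, 0.21 for Scgb1a1 and 0.20 for Cbr2, where the median of all rows was 0.16. The highest RiboZero library exceeded the lowest by 25.5-fold for Bpifa1 and 23.1-fold for Reg3g, but by 1.70-fold for Cbr2. Bpifa1 varied more than 97.27% of all 16710 rows. The less variable members were not steady for their level: among rows within 1 log2 unit of their own level, Scgb3a2 varied more than 94.72% of 738, Aldh1a1 more than 92.37% of 236, Cyp2f2 more than 85.94% of 64 and Cbr2 more than 79.49% of 39.

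These differences between mice recurred when the same RNA was prepared another way. Centred on the genotype means, levels in PolyA and RiboZero correlated over the 12 mice for 10 of 10 members, with Pearson's r from 0.76 (Muc5ac) to 0.99 (Reg3g) and adjusted permutation p-values of at most 0.0177 in the family of 10. The median r of all rows was 0.53. Reg3g had r 0.99 (permutation p 2e-05) and a Spearman coefficient of 0.98 (permutation p 3e-05), and r 0.99 without WT mouse 6 and KO mouse 1. Cyp2f2 had r 0.80 (permutation p 0.0177) and a Spearman coefficient of 0.62 (permutation p 0.0372), but r 0.22 without WT mice 2 and 6, so its relation rested on those mice. In RiboZero and NoSelect, over 8 mice, 10 of 10 members correlated, with r from 0.96 to 1.00, where the median of all rows was 0.59 and 16.1% of rows had r over 0.9. The smallest permutation p there was 0.00174, the least that the 576 exact permutations can give. In PolyA and NoSelect 7 of 10 were called, and Scgb1a1 (r 0.80), Cyp2f2 (0.84) and Cbr2 (0.72) were not, where the median of all rows was 0.56. For this pair of preparations r was over 0.9 for 7 of 10 members and for 12.1% of all rows.

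**Figure D4:**
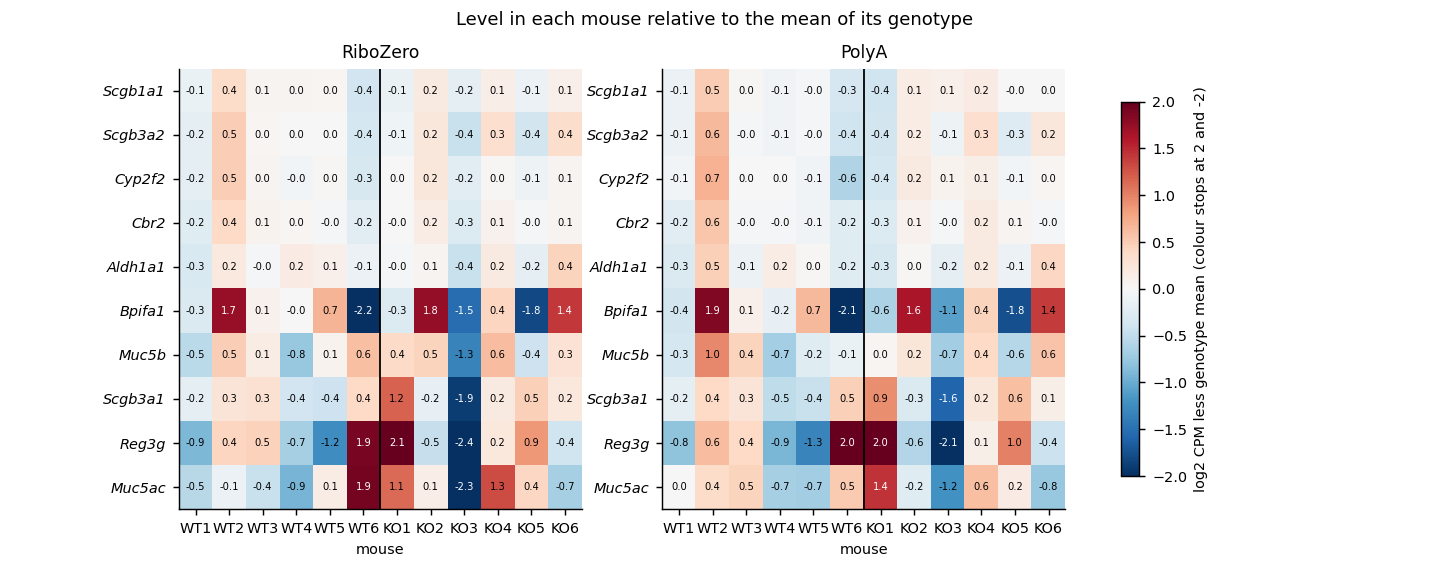
Level of each member in each of the 12 mice in RiboZero and in PolyA, as log2 CPM less the mean of the mouse's genotype (colour scale). Rows of Reg3g, Scgb3a1 and Muc5ac share their high and low mice, KO mouse 1 high and KO mouse 3 low, while Bpifa1 is low in WT mouse 6 and KO mouse 5, where Reg3g is high.

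The members fell into groups that rose and fell together from mouse to mouse. Of the 45 pairs, 19 were called in RiboZero and 18 in PolyA at an adjusted permutation p under 0.05, all with positive r. The lowest r called was 0.60 in RiboZero and 0.71 in PolyA, and 4.45% and 2.19% of all pairs of tested rows had an r at least as high. The first group held the club cell products and enzymes. Scgb1a1 and Cyp2f2 had r 0.92 (permutation p 5e-05, adjusted p 0.00112) and a Spearman coefficient of 0.92 (permutation p 0.00015) in RiboZero, and r 0.83 without WT mice 6 and 2. In PolyA the same pair had r 0.96 and a Spearman coefficient of 0.94, and r 0.93 without WT mouse 2 and KO mouse 1. Scgb1a1 correlated with Scgb3a2 at r 0.91 in RiboZero and 0.90 in PolyA, and with Cbr2 at 0.90 and 0.94. Cyp2f2 and Cbr2 correlated at 0.95 and 0.91.

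The other group held Scgb3a1, Reg3g and Muc5ac. Scgb3a1 and Reg3g had r 0.90 (permutation p 2e-05, adjusted p 0.0009) and a Spearman coefficient of 0.98 (permutation p 2e-05) in RiboZero, and r 0.86 without KO mice 3 and 1. In PolyA they had r 0.91 (permutation p 1e-05, the smallest that 100000 resamples can give) and a Spearman coefficient of 0.97, and r 0.90 without the same mice. Muc5ac and Reg3g had r 0.82 in RiboZero and 0.87 in PolyA, but 0.59 in RiboZero without KO mouse 3 and WT mouse 6. WT mouse 6 and KO mice 1 and 5 were high for Reg3g, and KO mouse 3 and WT mouse 5 low. Between the groups, Scgb1a1 and Reg3g had r -0.19 in RiboZero and -0.39 in PolyA, and neither was called. Bpifa1 went with the first group in RiboZero, at r 0.90 with Scgb1a1 and 0.92 with Scgb3a2. In PolyA it had r 0.85 with Scgb3a2, but r 0.66 with Scgb1a1 was not called (adjusted permutation p 0.0696). Its high mice were WT mouse 2 and KO mice 2 and 6, and its low mice WT mouse 6 and KO mice 3 and 5. Scgb1a1 and Scgb3a1, both secretoglobins, had r 0.06 in RiboZero and -0.25 in PolyA and were not called.

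**Figure D5:**
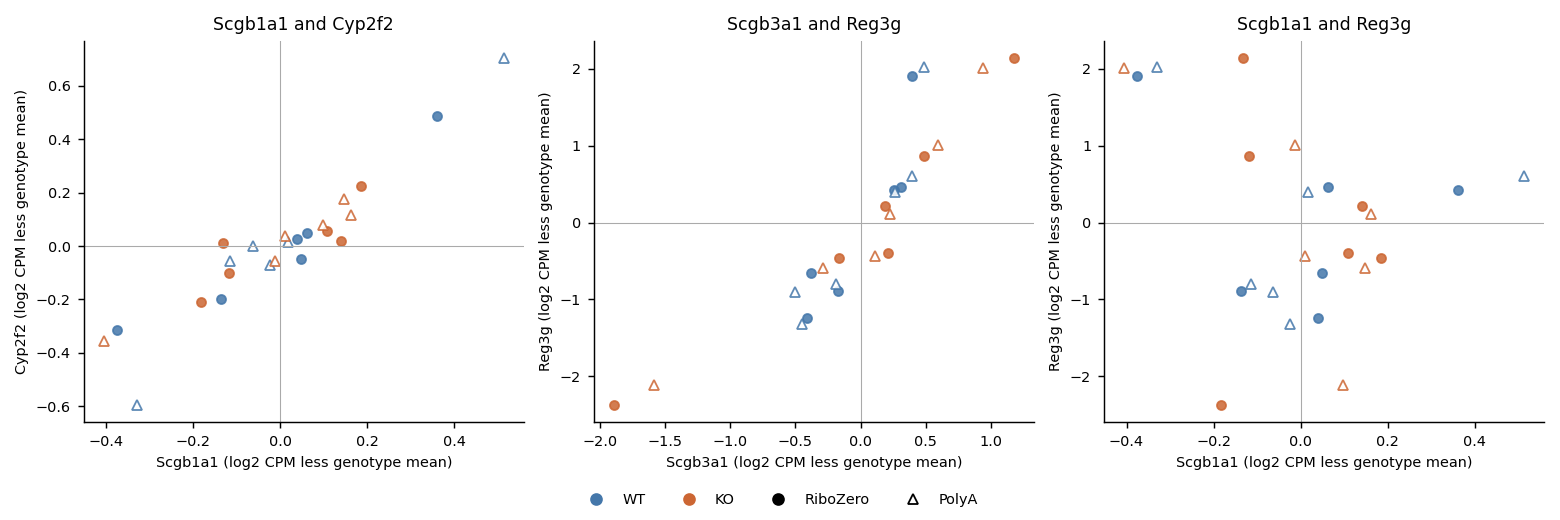
Log2 CPM less the genotype mean of Scgb1a1 against Cyp2f2, Scgb3a1 against Reg3g and Scgb1a1 against Reg3g, with 1 point per mouse, filled circles for RiboZero and open triangles for PolyA. The first and the second pair follow a rising line (RiboZero r 0.92 and 0.90), and the last does not (r -0.19).

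Markers of ciliated cells, the other main cell of the small airway, were set beside the members. Of 16 ciliated genes 14 were found and tested, and their summed level in RiboZero was 985 to 1390 CPM in WT (median 1111) and 1019 to 1469 CPM in KO (median 1335). Between KO and WT 0 of 14 were called by edgeR in RiboZero, PolyA and NoSelect, 5, 4 and 3 had an unadjusted p under 0.05, and DESeq2 called 2, 1 and 0. All 14 had fitted changes above 0, with medians of 0.24, 0.24 and 0.20 on the log2 scale. The mean ciliated level was lowest in WT mouse 6 and highest in WT mouse 2 among WT mice, the mice that were lowest and highest for Scgb1a1. Over 12 mice the ciliated level correlated with 5 of 10 members in RiboZero: Cyp2f2 (r 0.86, permutation p 7e-05, Spearman coefficient 0.85), Cbr2 (0.85), Scgb3a2 (0.77), Bpifa1 (0.76) and Scgb1a1 (0.73). Without KO mouse 3 and WT mouse 2 these were 0.83, 0.70, 0.57, 0.66 and 0.58. In PolyA the same 5 and Muc5b were called. An r at least as high as the lowest called, 0.73 in RiboZero and 0.67 in PolyA, was found for 4.83% and 9.06% of all tested rows outside the ciliated list. In PolyA, however, the values of the same 5 fell without WT mice 2 and 6. Scgb1a1 and Cbr2 went from 0.75 and 0.76 to 0.30 and 0.30. Cyp2f2 went from 0.86 to 0.44, Scgb3a2 from 0.79 to 0.46 and Bpifa1 from 0.75 to 0.49, so these 5 rest in large part on those mice. Muc5b went from 0.67 to 0.62. Reg3g (r 0.38 in RiboZero and -0.07 in PolyA), Muc5ac (0.29 and 0.15), Scgb3a1 (0.59 and 0.10) and Aldh1a1 (0.57 and 0.56) were not called. Markers of other lung cells were measured in the same way. All 10 genes of alveolar type 2 cells, which make surfactant, were tested, and 1 of 10 was above 0 in each preparation, with median log2 changes of -0.21 (RiboZero), -0.39 (PolyA) and -0.21 (NoSelect). Of them 2, 3 and 2 were called lower in KO by edgeR. Their summed level in RiboZero was 14868 to 19223 CPM in WT (median 17384) and 13209 to 17648 CPM in KO (median 14710). Of 6 endothelial genes 5, 6 and 6 were above 0, with medians of 0.16, 0.16 and 0.15. Their summed level in RiboZero was 2285 to 2706 CPM in WT (median 2494) and 2465 to 3047 CPM in KO (median 2792). For the endothelial genes edgeR called 0 in each preparation, 2 in each had an unadjusted p under 0.05, and DESeq2 called 0, 0 and 1. Of the remaining lists, edgeR called 1 alveolar type 1 gene higher in RiboZero, 1 macrophage gene lower in PolyA and 1 liver gene lower in PolyA. None was called of the basal, neuroendocrine, smooth muscle and cartilage lists, where 0, 3 and 1 genes had an unadjusted p under 0.05 in RiboZero, PolyA and NoSelect and DESeq2 called 0. The part of the cell makeup of each piece of lung in the differences of the members between mice or genotypes was not tested.

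By the pattern over mice, the genes most like Scgb1a1 among 13050 rows were Cldn10 (a claudin), Kcnk2 (a potassium channel), Tst (a sulfurtransferase), Cat (catalase) and Net1. Ranked by the lower of the r in the 12 RiboZero and the 12 PolyA libraries, these values were 0.93, 0.93, 0.92, 0.90 and 0.90.

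Beside the members, some enzymes of xenobiotic metabolism did differ between the genotypes in whole lung. Which cells their RNA came from was not tested. Of a list of 16 xenobiotic enzymes, 6 were called in RiboZero (2 higher and 4 lower in KO), 3 in PolyA (1 higher, 2 lower) and 5 in NoSelect (2 higher, 3 lower), with medians of 0.01, -0.03 and 0.02 on the log2 scale. Over all rows 1.84%, 1.62% and 1.19% were called higher and 1.63%, 2.41% and 0.981% lower. Gsta3, a glutathione transferase, was at 79.5 to 103 CPM in WT and 33.5 to 55.8 CPM in KO in RiboZero, without overlap. It fell in KO by 0.95 on the log2 scale (adjusted p 5.48e-04, edgeR) in RiboZero, and its change was -0.72 in PolyA and -1.07 in NoSelect. Cyp2a5, a P450 of coumarin and nicotine metabolism, was at 11.9 to 42.2 CPM in WT and 2.33 to 6.84 CPM in KO, without overlap, with changes of -2.24 (adjusted p 0.00602), -2.11 and -2.35. Of its 31-base words, 54.56% also occur in another gene, most often Cyp2a4, so its counts may include reads of such genes. The NoSelect call of Cyp2a5 held in 11 of 16 alternatives and was lost with the replicate number as a block (adjusted p 0.124). Aldh3a1, an aldehyde dehydrogenase, went the other way, from 16.8 to 25.9 CPM in WT to 29.0 to 59.5 CPM in KO, with a rise of 1.10 (adjusted p 0.0034), 1.13 and 1.09 on the log2 scale. Its NoSelect call (adjusted p 0.0454, edgeR) was lost with the replicate number as a block (adjusted p 0.151). It was also lost without KO mouse 6 (adjusted p 0.0511, edgeR), without KO mouse 4 or 5, and without any single WT mouse (adjusted p up to 0.114). Por, which passes electrons to P450 enzymes, fell by 0.40 (adjusted p 0.00694) in RiboZero. In NoSelect the monooxygenase Fmo2 (-0.61, adjusted p 0.00676) fell and the P450 Cyp2s1 (0.50, adjusted p 0.0297) rose. Both were also called in RiboZero (-0.44, adjusted p 0.0221, and 0.48, adjusted p 0.0222, edgeR) but not in PolyA (-0.40 and 0.44). With the replicate number as a block the NoSelect adjusted p-values were 0.0722 and 0.138, and that of Fmo2 in RiboZero was 0.110. The RiboZero call of Cyp2s1 was lost without WT mouse 4, 5 or 6 or KO mouse 2. The NoSelect call of Fmo2 held in 15 of 16 alternatives and that of Cyp2s1 in 7 of 16, being lost also without KO mouse 6 (adjusted p 0.0561, edgeR).

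Between KO and WT, other secretory products and their regulators gave 0 to 2 calls per list and preparation. Over all rows edgeR called 3.46% (RiboZero), 4.03% (PolyA) and 2.17% (NoSelect), so counts this small do not place the lists below all rows. Of 28 secretory products 23, 24 and 23 were tested, with 1 called in RiboZero and 2 in PolyA. In NoSelect edgeR called 0. With the preparations in the same order, 9, 8 and 4 products had an unadjusted p under 0.05, and DESeq2 called 3, 4 and 2. For the regulators these counts were 5, 5 and 2, and 1, 2 and 1. Of all rows 16.4%, 18% and 15.7% had such a p. The paraoxonase Pon1 was lower in KO in RiboZero (-0.73, adjusted p 0.0422) and in PolyA (-0.90, adjusted p 0.0249), and the RiboZero call was kept in 7 of 21 alternatives and lost without KO mouse 6 (adjusted p 0.061, edgeR). Upk3a, a uroplakin that marks a subset of club cells, rose in PolyA (1.53, adjusted p 0.00539), from 0.722 to 1.53 CPM in WT to 1.80 to 4.50 CPM in KO. Of 20 regulators 19, 20 and 19 were tested and 1 was called lower in each preparation: the transcription factor Tfcp2l1 in RiboZero (-0.44, adjusted p 0.00203) and NoSelect (-0.44, adjusted p 0.0395), and Cebpa in PolyA (-0.22, adjusted p 0.0454). The NoSelect call of Tfcp2l1 held in 7 of 16 alternatives (adjusted p 0.0821 with the replicate number as a block). That of Cebpa held in 4 of 21 and was lost without KO mouse 6 (adjusted p 0.0568, edgeR). Between PolyA and RiboZero, 2 of the 16 xenobiotic enzymes (Cyp2s1 1.42, Cyp2a5 1.08) and 9 of 24 secretory products (led by Chad 2.07 and Muc16 1.52) were called higher. Of 19 regulators 2 were higher (Nkx2-1 1.49, Elf3 1.15) and 3 lower, led by Notch2 (-1.80) and Notch1 (-1.17).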

How the data were processed

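Gene expression was measured by stranded RNA-seq in 32 lung libraries from 12 mice. The authors deposited a table of estimated counts per gene, made with Salmon 1.4.0 on GRCm38, per the submitters' processing notes, which also name UMI-tools 1.1.1 without its role. Counts were rounded, since 12.81% of values were not whole, and CPM were computed here with TMM scaling within a preparation. Comparisons used edgeR 4.0.16 (R 4.3.3; quasi-likelihood, filterByExpr, Benjamini-Hochberg over all rows tested), with DESeq2 1.42.0 as an alternative; fits were tested on simulated data. Correlations used log2 CPM (0.5 added to each count) and 100000 resamples of mice within genotype, or all 576 for 8 mice (Python 3.11.15, numpy 2.4.6, scipy 1.17.1). Exonic length is the union of annotated exons in GENCODE M21; the authors' annotation is not given in the sources used here.

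Replicates are separate mice, per the series' design, and replicates of a group differed by more than sampling noise, at 7.018 to 69.87 chi-square per degree of freedom over 72 pairs. Libraries of 1 mouse in different preparations deviated together (r 0.328 to 0.697, 0.370 to 0.613 and 0.294 to 0.499, each best with its own mouse), so ratios and correlations between preparations were taken within mice. The tests between preparations had genotype as their other term and no mouse term, and the mouse as a block was an alternative. Equal numbers in WT and KO are different mice. The members and gene lists were chosen with earlier results of these data known. Named genes were all members, the called genes of 3 lists (at most 4 per list and comparison, by adjusted p), for PolyA against RiboZero the 2 largest called changes each way, the 5 genes most like Scgb1a1, and Arntl. Marker lists of alveolar, basal, neuroendocrine, endothelial, macrophage, smooth muscle, cartilage and liver cells were also measured. Also computed after seeing the data were the shares of all rows and pairs that reached the lowest correlation called. Alternatives were other scaling, filters, tools, blocks, rows kept and libraries left out.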

Additional observations from a re-analysis of the deposited data

Results flagged for a closer look

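Dixon's test was applied to the highest and lowest library of each member in each group of 4 or 6 mice, 60 groups in all, and marked 11; chance marks about 1 in 20 groups, and libraries of the same mouse are not independent marks. Most involved WT mouse 2 or WT mouse 6. In PolyA, WT mouse 2 was far above the next WT mouse for Scgb1a1 (59143 CPM against 41929), Scgb3a2 (1494 against 941 CPM), Cyp2f2 (7599 against 4717 CPM) and Cbr2 (7732 against 5170.3 CPM). In NoSelect, WT mouse 6 was far below the next WT mouse for Scgb1a1 (2615 CPM against 3440), Scgb3a2 (56.8 against 73.3 CPM) and Cyp2f2 (409.5 against 544 CPM). The same mouse was far above the other WT mice for Reg3g in RiboZero (82.4 CPM) and PolyA (233 CPM) and for Muc5ac in RiboZero (12.1 CPM). KO mouse 1 was far below the other KO mice for Scgb1a1 in PolyA (37760 CPM), while in RiboZero it was within their range.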

How the results depend on the processing

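The replicate block by number in WT and KO called 0 members in each preparation, as without it (same-number correlations -0.0633 to 0.138 in RiboZero, -0.0979 to 0.213 in PolyA and -0.0316 to 0.113 in NoSelect). The block by mouse called 6 members between PolyA and RiboZero, 7 between PolyA and NoSelect, 1 between RiboZero and NoSelect and 0 interactions. KO calls changed with DESeq2 in NoSelect (1 member), with mice 3 to 6 only in PolyA (1) and without single PolyA libraries (0 to 2). Over all rows these fits called 874 of 17124, 465 of 17246 and, without single PolyA libraries, 442 to 1066 rows. RiboZero stayed at 0 in 9 alternatives and without each library. Between RiboZero and NoSelect 0 members were called without KO mouse 6 and 0 to 1 without single NoSelect libraries.

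Signs of small KO changes reversed, and the cause was not tested. Aldh1a1 was at -0.076 in RiboZero, -0.013 in PolyA and -0.15 in NoSelect without KO mouse 6, at -0.023 with the number block in NoSelect, and between -0.076 and 0.10, -0.013 and 0.19, and -0.15 and 0.11 without single libraries. Cbr2 was at 0.042 in PolyA with mice 3 to 6 only, up to 0.024 in PolyA and -0.11 to 0.0050 in NoSelect without single libraries. Without single libraries Cyp2f2 ran from -0.0039 to 0.27 in PolyA, and in NoSelect Muc5ac from -0.30 to 0.93 and Reg3g from -0.031 to 1.41. Without centring on genotype, r of Reg3g with the ciliated level in PolyA was 0.16 and r of Scgb1a1 with Reg3g in RiboZero was 0.12. Called pairs numbered 16 to 19 in RiboZero and 15 to 18 in PolyA over 5 alternatives each. Depth limits Muc5ac, with 10 to 275 counts per RiboZero library; how far depth and the number of mice each limit the comparison of genotypes was not tested.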

Other observations

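The goblet cell gene Clca1, chosen after its values were seen, differed between mice even more than Reg3g or Bpifa1. In RiboZero it was at 0.218 CPM (mouse 5) through 0.959 to 38.1 CPM (mouse 6) in WT and at 0.715 CPM (mouse 3) through 41.4 to 295 CPM (mouse 4) in KO. Counts per library ran from 4 to 6508, and in PolyA the extremes fell in the same mice, at 0.456 and 74.4 CPM in WT and 2.69 and 457 CPM in KO. In RiboZero, WT mouse 6 and KO mice 1, 2 and 4 were high for Clca1, and KO mouse 3 low. Itln1, an intelectin of goblet cells, was highest in WT mouse 6 (14.0 CPM) and KO mouse 1 (31.1 CPM) in PolyA, where KO mouse 4 had 0.430 CPM, so these goblet genes did not share all their high mice. Neither was called between KO and WT by the quasi-likelihood test of edgeR, Benjamini-Hochberg adjusted: Clca1 had adjusted p-values of 0.198 in RiboZero and 0.254 in PolyA, and Itln1 of 0.590 and 0.617.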
